A study of Mus musculus with 12 samples.

Results

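The regions described here are 190 tiles of the mouse genome whose DNA methylation differed widely between mice of the same maternal diet, in both diets of the study. A tile is a 500 bp window of an autosome holding 5 or more CpG sites with a value in all 12 samples, and its level in a sample is the mean percent methylation of those sites. A tile was kept when the standard deviation (SD) of its level was 8 percentage points or more among the 6 mice of one diet and also among the 6 mice of the other. Of 20076 tiles, 190 met this rule, while 306 passed it in the high-fat group alone and 412 in the regular-diet group alone. The tiles were thus chosen by their measured SD within each diet, and that spread, and everything computed from it, is given as a description and supports no claim. Just inside the limit lay a tile near Gm46780, with a lower SD of 8.01 points, and one in Gm39375, with 8.02 points. Just outside lay tiles in Zfp800 and Trerf1, whose lower SDs were both 7.95 points.

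The samples were left ventricles of wild-type FVB/N mice taken at 3 weeks of age, at weaning. No mouse carried a transgene or deletion, and the only treatment was the food of the mother. In the HFD group (3 females, numbered 2, 3 and 4, and 3 males, numbered 2, 3 and 4), mothers ate the Teklad high-fat diet from 6 weeks of age and were mated after 8 weeks. In the RD group (4 females, numbered 1 to 4, and 2 males, numbered 1 and 2), mothers ate a regular laboratory diet, and the fathers of both groups were fed the regular diet. The number of mothers was not given, so some mice may share one, and a ventricle is a mixture of cell types. Fewer cells of a type and a different level per cell cannot be told apart in such tissue.

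Methylation of the cytosine in a CpG pair is copied when cells divide and is often low at CpG islands, the CpG-dense stretches at the starts of many genes, and high elsewhere. Imprinted regions carry methylation on the copy from one parent only. At regions known as metastable epialleles, some of them inserted IAP retrotransposons, genetically alike mice carry different levels that are set early in development and shared by their tissues. FVB/N is an inbred strain, whose mice share nearly all of their DNA sequence.

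The following 4 stretches are shown first, because they hold all measured CpGs of a variable tile in a promoter, at high and at lower CpG density. Of the 183 variable tiles on chromosomes with promoter windows, 29 (15.8%) overlapped one, and sequence outside the windows was not used here. Each is the 250 bases before an annotated gene start in the RefSeq promoter table (GRCm38.p6), written 5′ to 3′ on the gene's strand, with the CpGs measured in the tile in capitals. Ugcg encodes the enzyme that makes glucosylceramide, and its stretch lies at chr4:59189300-59189549, plus strand. The stretch of 1700125G02Rik, at chr4:124894783-124895032, minus strand, holds the tile that lies inside Epha10, an Eph receptor gene. Elovl2 encodes an elongase of long polyunsaturated fatty acids, and its stretch is chr13:41220404-41220653, minus strand. The stretch of Rbm46os, at chr3:82904227-82904476, plus strand, is shown for contrast because it is far poorer in CpGs. The last pair was chosen after its values were seen.
Ugcg: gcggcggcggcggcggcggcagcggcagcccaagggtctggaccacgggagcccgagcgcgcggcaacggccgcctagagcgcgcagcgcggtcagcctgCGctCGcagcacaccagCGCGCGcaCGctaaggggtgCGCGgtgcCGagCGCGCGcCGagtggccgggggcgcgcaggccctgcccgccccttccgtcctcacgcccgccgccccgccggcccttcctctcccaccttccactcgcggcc
1700125G02Rik: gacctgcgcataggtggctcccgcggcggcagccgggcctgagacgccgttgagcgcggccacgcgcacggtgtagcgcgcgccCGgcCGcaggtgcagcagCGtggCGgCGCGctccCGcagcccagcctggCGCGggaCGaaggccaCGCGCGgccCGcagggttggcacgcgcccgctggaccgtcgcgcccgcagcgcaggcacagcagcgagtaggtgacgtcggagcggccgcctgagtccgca
Elovl2: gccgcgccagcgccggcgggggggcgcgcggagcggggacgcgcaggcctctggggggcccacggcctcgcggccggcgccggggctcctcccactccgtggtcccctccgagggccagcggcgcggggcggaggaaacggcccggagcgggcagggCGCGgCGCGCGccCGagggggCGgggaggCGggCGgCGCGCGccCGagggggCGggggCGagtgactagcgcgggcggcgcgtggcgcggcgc
Rbm46os: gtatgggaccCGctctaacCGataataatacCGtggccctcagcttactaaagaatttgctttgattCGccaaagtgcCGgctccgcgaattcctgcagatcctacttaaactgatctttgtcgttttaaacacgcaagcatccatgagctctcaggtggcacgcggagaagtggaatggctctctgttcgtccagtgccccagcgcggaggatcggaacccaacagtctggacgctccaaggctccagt
The Ugcg stretch had 80.4% G and C and 43 CpGs, that of 1700125G02Rik 78% and 43, that of Elovl2 87.2% and 49, and that of Rbm46os 52.8% and 16. Every measured CpG of the tile lay within its stretch, 13 for Ugcg, 14 for 1700125G02Rik, 15 for Elovl2 and 5 for Rbm46os.

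The 2 libraries HFD male 4 and RD female 1 stood apart at these tiles. In 94 of the 190 tiles (49.5%) HFD male 4 was the highest of its diet and RD female 1 the highest of its own, out of 36 possible pairs of mice. Over the tiles that did not meet the rule, the same pair was highest in 1175, or 5.91%. The next most frequent pair, HFD male 3 and RD male 2, was highest in 12 of the variable tiles (6.32%) and in 6.25% of the others. Counted singly, HFD male 4 was the highest HFD mouse in 105 variable tiles (55.3%, against 19.8% of the other tiles), and RD female 1 the highest RD mouse in 120 (63.2%, against 24.6%). HFD male 4 also had the fewest sites with a value, 385299, where the other libraries had 391923 to 417081 and RD female 1 had 410499. The part of this number in the result was not tested. The 94 tiles are called the shared-high tiles, and the remaining 96 the other variable tiles; this split was made after the values were seen.

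**Figure D1:**
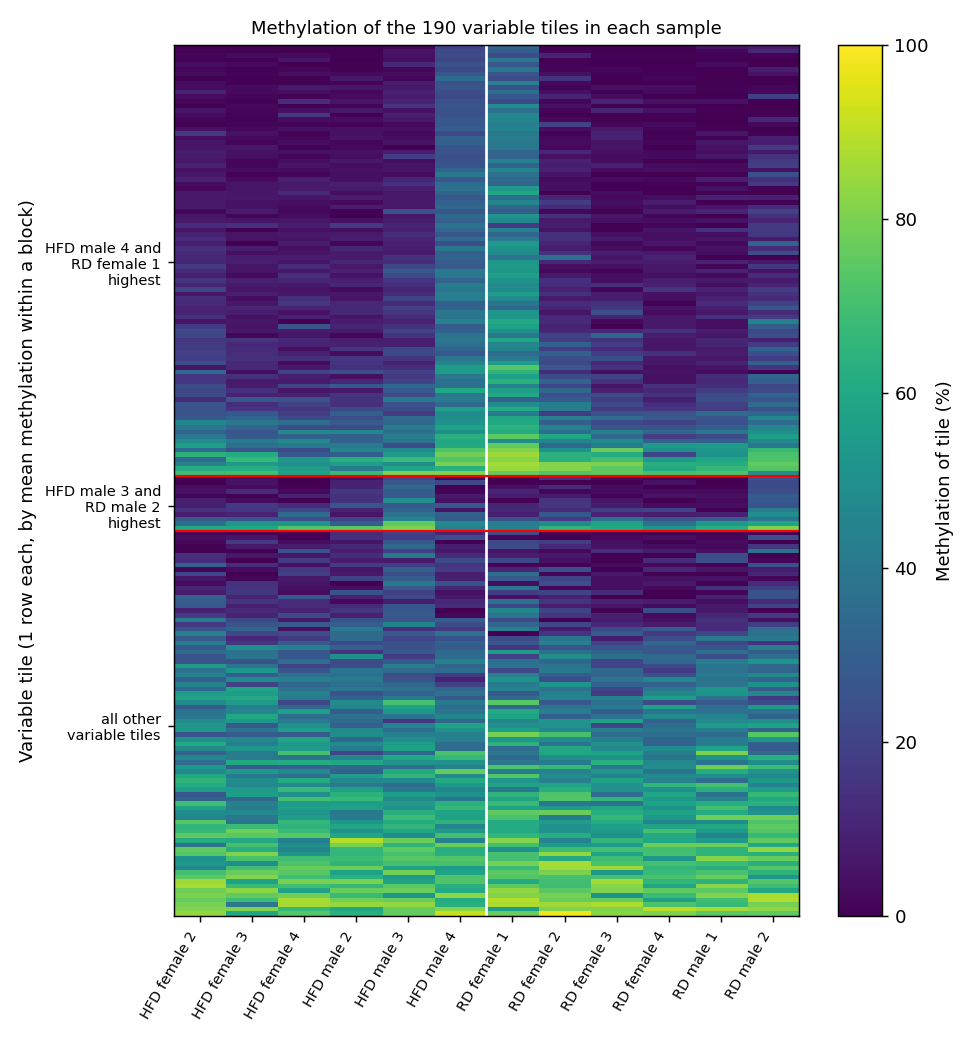
Methylation of the 190 variable tiles (rows) in the 12 mice (columns), with color giving the percent methylation of the tile in the mouse. The columns of HFD male 4 and RD female 1 are raised together over the 94 shared-high tiles, and no column is raised over all of the other tiles.

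In the shared-high tiles the median level was 33.4% in HFD male 4 and 46.1% in RD female 1. The median ranged from 5.78% to 11.9% over the other HFD mice and from 4.82% to 16.0% over the other RD mice, with RD male 2 at the top of that range. Both libraries lay above all 10 remaining mice in 83 of the 94 tiles, with a median gap of 12.2 points between the lower of the pair and the highest of the rest. RD female 1 was above HFD male 4 in 81 of them. In the other variable tiles, by contrast, the medians of all 12 mice lay between 35.5% and 42.3%. The first principal component of the variable tiles, after each diet's mean was subtracted, held 55.0% of their spread and weighted RD female 1 by 0.737 and HFD male 4 by 0.483, with every other mouse between -0.262 and 0.011. Over all tiles the first component held 22.1%.

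Ugcg gave the pattern at the first printed stretch (chr4:59189401-59189457, ending 50 bp before the gene, 13 sites). In the HFD mice the tile stood at 34.2%, 3.84% and 20.1% in females 2, 3 and 4 and at 24.5%, 19.6% and 54.5% in males 2, 3 and 4. In the RD mice it stood at 64.9%, 12.5%, 3.70% and 5.69% in females 1 to 4 and at 2.84% and 0.385% in males 1 and 2. RD female 1 was therefore far above the other RD mice, while the HFD mice were spread more evenly below HFD male 4. The raised level was held along the whole run of CpGs: single sites ran from 55.5% to 71.1% in RD female 1 and from 48.1% to 62.5% in HFD male 4. In RD male 2 no site exceeded 5.00%.

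The tile in Epha10 (chr4:124894874-124894948, 14 sites) was at 44.4% in HFD male 4, with the other HFD mice between 0.357% and 9.01%. Among RD mice it was at 61.1% in RD female 1 and at 43.8% in RD male 2, with the rest between 2.01% and 12.4%. At this locus RD male 2 thus joined the high libraries, and its single sites ran from 29.6% to 53.6%. In the tile 35 bp from Elovl2 (chr13:41220438-41220496, 15 sites) the level was 27.2% in HFD male 4 and 26.5% in RD female 1. The other 10 mice lay between 0.274% and 4.72%, and the ranges of the diets overlapped.

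Several of the most variable loci followed the same order. The tile shared by Zeb1, a zinc-finger repressor known for its part in epithelial-mesenchymal transition, and the noncoding gene Gm10125 (chr18:5592412-5592486, 18 sites) reached 54.7% in HFD male 4, with the other HFD mice at 5.35% to 13.7%. In RD female 1 it reached 73.7%, with the other RD mice at 4.12% to 27.5%. Zfp318, a zinc-finger protein gene (chr17:46383912-46383984, 12 sites), was at 40.1% in HFD male 4 against 0.893% to 6.64% in the other HFD mice. It was at 37.6% in RD female 1 and 24.2% in RD male 2, and at 0% to 5.85% in the other RD mice.

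At Gdf7 and Ldah (chr12:8298250-8298420, 25 sites), where Gdf7 encodes a ligand of the bone morphogenetic protein family, RD female 1 had 52.1% and the other RD mice 0.973% to 10.1%. HFD male 4 had 41.3% there, but HFD male 3 had 28.4%, and the other HFD mice 5.43% to 12.3%. Lgi2 (chr5:52566128-52566325, 26 sites) had 45.7% in HFD male 4 and 54.9% in RD female 1, the other mice lying between 3.01% and 31.0%. The lower values at Lgi2 formed a continuous range, with RD male 2 the highest of them. In Fbxl17, which encodes an F-box subunit of a ubiquitin ligase (chr17:63499551-63499779, 24 sites), HFD male 4 stood at 60.0% and RD female 1 at 56.2%. The remaining HFD mice had 6.09% to 27.7% and the remaining RD mice 8.88% to 33.3%. A tile lay 18 bp from Gm35886, a gene model without a described function (chr2:163919002-163919049, 10 sites). It had 56.6% in HFD male 4 against 15.1% to 25.4%, and 61.0% in RD female 1 against 15.6% to 41.7%.

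**Figure D2:**
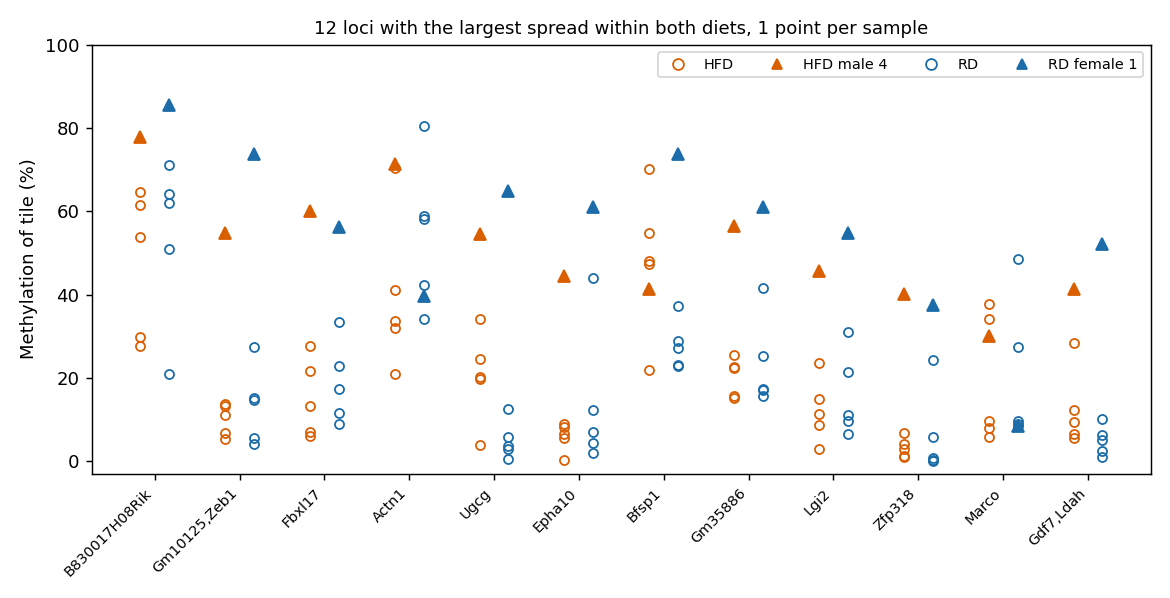
Percent methylation of the tile in each of the 12 mice at the 12 loci with the largest lower-of-the-pair SD. The loci stand side by side along one axis, with HFD mice on the left and RD mice on the right of each. HFD male 4 and RD female 1 are marked. Both marked mice are highest of their diet at loci such as Zeb1, Lgi2 and Zfp318, only HFD male 4 is at Actn1, and neither is at the tile near Marco.

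The shared-high tiles had more CpG sites and lower levels than the other variable tiles. They held a median of 17 sites, against 6 in the other variable tiles and 7 over all tiles, and 83 of 94 (88.3%) held 10 sites or more, against 10 of 96 (10.4%) and 33.6% of all tiles. Tiles past the limit in RD alone held a median of 7 sites, and 34.2% of them held 10 or more. Their median level was 14.4%, where the other variable tiles had 41.7%, tiles past the limit in RD alone 13.6% and all tiles 4.51%. In 67 of them (71.3%) the tile lay within 1 kb of the end of a gene, against 34 (35.4%) of the other variable tiles, 52.7% of tiles past the limit in RD alone, 51.9% of all tiles and 73.4% of all tiles with a mean under 25%, whose median level was 1.84%. A RefSeq promoter window overlapped 24 shared-high tiles (26.1% of those on chromosomes with windows) and 5 other variable tiles (5.49%), against 16.8% of all tiles, 15.75% of tiles past the limit in RD alone and 25.8% of tiles with a mean under 25%. Those windows had a median of 75.5% G and C and 45.5 CpGs at the shared-high tiles, and 67% and 23 CpGs at the others. At tiles past the limit in RD alone they had 70% and 34 CpGs. Promoter windows overlapped by any tile had medians of 65.0% and 25 CpGs, and the full set of 32851 windows 52.7% and 7. The shared-high tiles were thus CpG-dense and mostly low in methylation. The number of sites enters the rule through its minimum of 5, and the level comes from the values that chose the tiles, so both are descriptions.

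The rise spread over most sites of a tile. The reference was the median of the other mice of the diet at the site. Of 1720 sites in the shared-high tiles, 1463 (85.1%) lay 10 points or more above it in HFD male 4 and 1524 (88.6%) in RD female 1. Per tile the median share of raised sites was 93.75% and 100%. These sites set the tile means by which the tiles were chosen and split, so most of them are raised by construction. They spanned a median of 74.5 bp per tile and can lie on the same reads, so the shares are a description.

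The same libraries were raised, by less, at CpG-dense tiles outside the chosen set. The excess of a mouse is taken over the median of the other mice of its diet, first in tiles outside the set that overlapped a promoter window. The mean excess of RD female 1 was 1.01 points where the window had under 60% G and C (845 tiles) and 5.80 points where it had 80% or more (66 tiles). The excess of HFD male 4 was 0.645 points in the poorest windows, 0.462 points at 60% to 70% and 3.79 points in the richest. RD male 2 went from 1.43 to 2.25 points and HFD male 3 from 1.25 to 1.51. By number of sites, in tiles with a mean level under 25%, the excess of HFD male 4 went from 0.558 points in tiles of 5 to 9 sites (6742 tiles) to 2.22 points in tiles of 30 or more (236 tiles), and that of RD female 1 from 1.12 to 4.22 points. Outside the variable tiles, an excess of 10 points or more was found at 385 tiles in HFD male 4 and at 621 in RD female 1, and 107 of them were shared (27.8% of the first and 17.2% of the second). RD male 2 had 569 such tiles, HFD male 3 had 382, and the other mice 97 to 333. A large rise at single tiles was therefore found in other mice as well, and the excess grew most with G and C content in HFD male 4 and RD female 1.

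**Figure D3:**
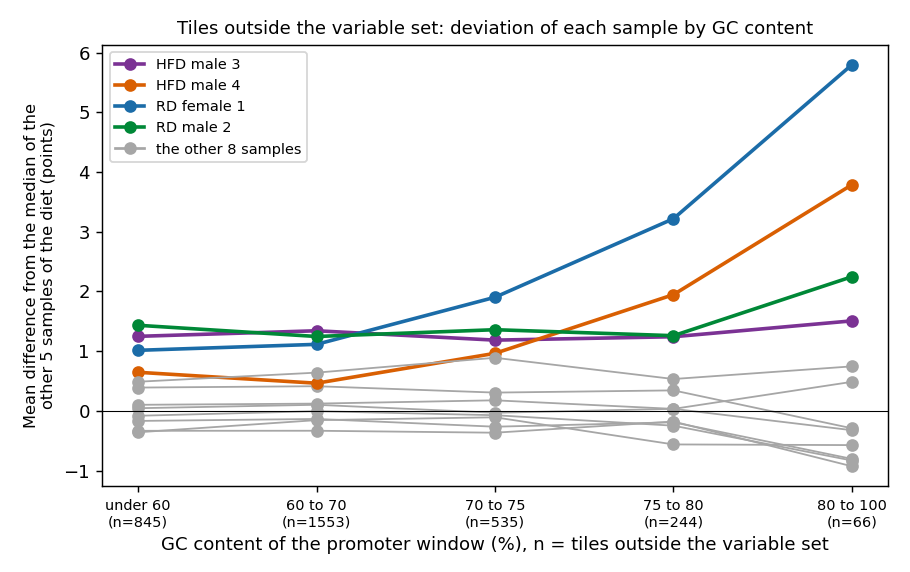
Mean excess over the median of the other mice of the diet (percentage points) of tiles that did not meet the SD rule, against the G and C content of the promoter window they overlap, one line per mouse. RD female 1 rises to 5.80 points and HFD male 4 to 3.79 points in the richest windows, and a point stands for 66 to 1553 tiles.

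Markers of the cell types of the heart gave few values at gene starts. Of 10 cardiomyocyte markers fixed for the check, 2 had a tile and 1 had it at the gene's start, where the level ranged from 0.994% to 5.87% over the 12 mice, with HFD male 4 the lowest at 0.994% and RD female 1 at 1.46%. At the start of the one endothelial marker with such a tile, HFD male 4 had 14.8% (HFD mice, 9.06% to 21.8%) and RD female 1 had 17.5% (RD mice, 16.2% to 24.9%). The one fibroblast marker stood at 0.885% to 2.94% in all mice, the one smooth muscle marker at 0% to 4.57%, and the mean of both atrial markers at 2.78% to 9.61%. Tiles on the X chromosome that were low in males gave 2.65% in HFD male 4, where males ranged from 1.52% to 3.01%, and 21.9% in RD female 1, above the other females at 17.2% to 20.7%. The part of cell makeup in the raised libraries was not tested.

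Leaving out HFD male 4 and RD female 1 changed which tiles were variable. With the same SD limit over the 10 remaining mice, 94 tiles passed, and 71 of them were among the 190. Of these 71, 8 were shared-high tiles and 63 were other variable tiles, while 119 of the 190 no longer passed, 86 of them shared-high tiles. The shared-high tiles were defined by HFD male 4 and RD female 1 being the highest of their diets. Leaving out these mice removes the top value of both diets there, so this contrast follows largely from the definition. Leaving out either library alone left 115 tiles (102 of them among the 190), and leaving out any other mouse left 177 to 200. With HFD male 3 and RD male 2 left out as well, 71 tiles passed, of which 44 were among the 190. The first component of the 71 tiles that still passed held 28.4% of their spread over 10 mice.

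**Figure D4:**
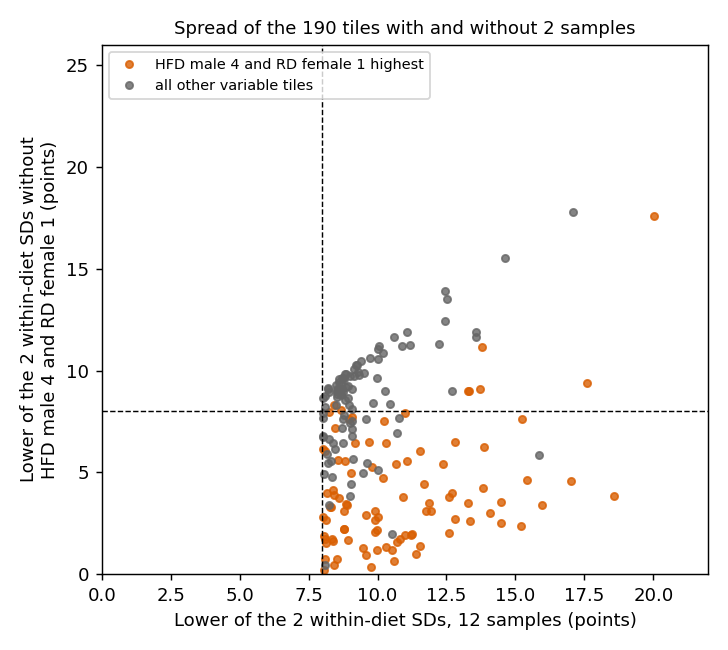
For each of the 190 tiles, the lower of the within-diet SDs (percentage points) over 12 mice against the same over the 10 mice left without HFD male 4 and RD female 1, with the limit of 8 points drawn on both axes. Most shared-high tiles drop below the limit, and 63 of the 96 other variable tiles stay above it. The shared-high tiles are defined by the mice left out, so their drop follows largely from the definition.

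The 71 tiles that passed without those libraries varied over a median range of 32.7 points among 10 mice, from 22.4 to 59.5. Of them, 49 had a mean level between 25% and 75%. The highest mouse was most often HFD male 3 among the 5 HFD mice (27 tiles, 38.0%) and RD male 2 among the 5 RD mice (30 tiles, 42.3%). Over the same mice they were highest in 28.7% and 29.6% of the tiles that did not meet the rule. In the 71 tiles HFD female 4 was highest in 6 and RD female 4 in 4.

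Actn1 encodes alpha-actinin 1, which crosslinks actin filaments, and its tile (chr12:80168378-80168452, 8 sites) had the widest spread of these. The HFD females had 32.0%, 41.0% and 70.4% and the HFD males 20.9%, 33.7% and 71.3%. The RD females had 39.7%, 58.9%, 58.1% and 42.4% and the RD males 80.4% and 34.1%. High and low mice occurred in both diets and both sexes, and the lower SD was 17.1 points over 12 mice and 17.8 without the high pair. The noncoding gene B830017H08Rik (chr16:17834009-17834079, 11 sites) had 64.5%, 61.6% and 27.7% in HFD females and 29.8%, 53.8% and 77.9% in HFD males. In RD females it had 85.5%, 64.1%, 61.9% and 20.9%, and in RD males 51.0% and 71.2%. HFD male 4 and RD female 1 were again highest here, but the lower SD remained 17.6 points without them, against 20.04 with them.

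A tile 5352 bp from Marco, which encodes a macrophage scavenger receptor (chr1:120469117-120469186, 5 sites), was split into high and low mice. It had 34.1%, 37.8% and 30.1% in HFD female 4 and HFD males 3 and 4, and 5.67% to 9.70% in the other HFD mice. In RD female 2 and RD male 2 it had 27.4% and 48.6%, and in the other RD mice 8.33% to 9.71%. No mouse lay between 9.71% and 27.4%, and RD female 1 was among the low ones at 8.46%. In Bfsp1, which encodes a filament protein of the lens (chr2:143862426-143862498, 7 sites), the HFD mice ranged from 21.8% to 70.1% with HFD male 3 highest. RD female 1 had 73.6% and the other RD mice 22.9% to 37.3%, so that the lower SD fell from 15.9 points to 5.88 without the high pair.

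In 12 tiles HFD male 3 and RD male 2 were the highest of their diets, a set described because it was the second most frequent pair. These tiles held a median of 5 sites, none held 10 or more, and 10 of the 12 lay within 1 kb of a gene end. Besides the tile near Marco they included Atf3, a transcription factor gene induced by stress (chr1:191182947-191182987, 6 sites), with 49.0% in HFD male 3 and 27.4% in RD male 2, and 0% to 15.5% in the other mice. Ntsr1, the gene of a neurotensin receptor (chr2:180499932-180499993, 6 sites), had 28.5% and 29.1% in that pair and 0.490% to 14.04% elsewhere. At Arc, a gene induced by activity in neurons (chr15:74672507-74672547, 5 sites), the pair had 27.1% and 22.5%, but HFD male 4 also had 21.8%, and 6 of the other mice were listed at 0. These genes fell outside the rule for naming and were chosen after their values were seen. All 12 tiles belong to the other variable tiles, of which they are 12.5%, since the shared-high tiles exclude this pair by definition. The pair was highest in 6.25% of the tiles that did not meet the rule.

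Further examples of other variable tiles that stayed past the limit without the high pair are given for 4 genes, chosen after their values were seen. Hand1, a transcription factor of heart development (chr11:57831694-57831765, 5 sites), had 17.3% to 49.6% in HFD mice (median 31.4%) and 20.6% to 49.4% in RD mice (median 35.4%). Lamb2, a laminin chain of basement membranes (chr9:108481334-108481406, 7 sites), ranged from 43.3% to 88.5% in HFD mice (median 61.1%) and from 44.5% to 81.3% in RD mice (median 62.8%). Camk2b, a subunit of calcium/calmodulin-dependent kinase II (chr11:6007177-6007237, 6 sites), ranged from 39.7% to 68.2% (median 51.2%) and from 42.0% to 78.0% (median 68.9%). Tfr2, a transferrin receptor gene (chr5:137584015-137584076, 8 sites), ranged from 24.7% to 55.5% (median 40.8%) and from 17.4% to 51.8% (median 44.6%). In each of these the ranges of the diets overlapped over most of their length.

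Tiles within 10 kb of each other were joined into loci, which gave 182 loci, 8 of them with 2 tiles. At Fkbp5, a co-chaperone of the glucocorticoid receptor, adjacent tiles moved together: RD female 1 had 64.0% (chr17:28486002-28486494, 22 sites) and 47.0% (chr17:28485901-28485974, 18 sites), and HFD male 4 had 36.7% and 30.5%. The other mice had 4.47% to 31.9% in the first tile and 3.72% to 23.6% in the second. Cspg5, a proteoglycan gene of the nervous system, had 42.3% and 27.5% in HFD male 4 and 47.5% and 33.5% in RD female 1 in its tiles (chr9:110245507-110245889, 10 sites, and chr9:110245158-110245495, 31 sites), and 3.82% to 20.5% and 2.21% to 13.9% in the others. Ube2j2, a ubiquitin-conjugating enzyme of the endoplasmic reticulum (chr4:155944000-155944064, 12 sites, and chr4:155943845-155943998, 13 sites), had 24.7% and 22.2% in HFD male 4 and 27.1% and 28.5% in RD female 1, and at most 11.3% and 11.7% in the others. The second Zfp318 tile (chr17:46384029-46384098, 16 sites) had 25.4% in HFD male 4 and 44.2% in RD female 1. Nova2, a splicing regulator gene (chr7:18926025-18926379 and chr7:18925905-18925979), had 34.9% and 60.8% in RD female 1 and 27.7% and 51.1% in HFD male 4. The second B830017H08Rik tile (chr16:17833535-17833891, 22 sites) had 25.7% in HFD male 4 and 31.9% in RD female 1 and 1.48% to 18.5% in the others, a lower level than the first tile in every mouse. HFD male 4 and RD female 1 were the highest of their diets in both tiles of these 6 loci.

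The order of the mice differed between the tiles of the other two loci. Zfhx3, a homeobox and zinc-finger transcription factor gene, had one tile with 26 sites and one with 5. In the one with 26 sites (chr8:108704029-108704222) HFD male 4 (62.8%) and RD female 1 (74.96%) were highest. In the one with 5 sites (chr8:108714012-108714073) HFD male 2 (64.4%) and RD female 2 (72.3%) were highest, and HFD female 2 was lowest of all at 27.6%. At Gm7993 the first tile lay just outside the gene (chr5:95973949-95973999) and the second inside it (chr5:95974005-95974108). HFD male 4 was highest of its diet at 72.4% in the first tile and HFD male 2 at 49.96% in the second, while RD female 1 was highest of its own in both, at 81.0% and 79.2%.

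Sites of one variable tile moved together between mice. After each diet's mean was subtracted, the median over tiles of the mean Pearson correlation between sites was 0.806 over 12 mice, and 0.671 over the 10 mice left without the high pair. It was 0.862 in the shared-high tiles (0.628 without the pair) and 0.739 in the other variable tiles (0.722 without). Tiles past the limit in one diet only gave 0.592 for HFD and 0.643 for RD, and all tiles with a mean level of 20% to 80% gave 0.175. The choice by the spread of the tile mean favours sites that vary together, and sites on the same read are not independent. The measured sites of a variable tile spanned a median of 71.5 bp, and 129 tiles (67.9%) spanned 100 bp or less, against 147 bp and 40.0% over tiles with a mean level of 5% to 95%. All sites of a tile had one and the same level (equal within 1e-09 points), other than 0% or 100%, in 16 of 2212 combinations of a tile and a sample (0.723%, against 0.0844% over those tiles), all of them in the other variable tiles. At Rbm46os, for instance, the level was 30.4% at each of the 5 sites in HFD male 3 and 5.56% at each in HFD female 2.

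Sites that the rule had not used followed the tiles in part. These were 424 sites in 69 variable tiles with a value missing in 1 to 4 samples. Their deviations from the diet means, averaged per tile, correlated with those of their tile with a median r of 0.607 over 8 or more mice, above 0 in 60 of 69 tiles. Without the high pair the median was 0.399 over 65 tiles. It was 0.665 in 41 shared-high tiles, 0.449 in 28 other variable tiles, 0.460 in tiles past the limit in RD alone, 0.243 in those past it in HFD alone and 0.109 in tiles with a mean level of 20% to 80%. Without the high pair these medians were 0.394 in the shared-high tiles, 0.3998 in the other variable tiles, 0.331 for RD alone, 0.326 for HFD alone and 0.101 for the 20% to 80% tiles, so the classes past the limit lay closer together. In the shared-high tiles the mean of the unused sites was 25.1% in HFD male 4 and 28.99% in RD female 1. RD male 2 followed at 20.1% and RD female 2 at 19.4%, and the other mice had 7.17% to 13.3%. A mouse had such sites in 31 to 40 of the tiles, so these means are not over the same tiles. The medians were 19.3% in HFD male 4, 24.1% in RD female 1, 11.5% in RD male 2, 10% in RD female 2 and 1.202% to 9.17% in the other mice. These sites come from the same libraries and can lie on the same reads.

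The correlation with neighbouring tiles faded within a short distance. The next tile along the chromosome had a median r of 0.511 with the variable tile (80 tiles, 0.351 without the high pair). For tiles past the limit in RD alone it was 0.372 (0.320 without the pair), and for those past it in HFD alone 0.251 (0.263 without). Tiles 2 to 4 windows away had 0.0938 (38 tiles), and those 5 to 20 windows away 0.130 (46 tiles). For all tiles of 20% to 80% the next tile had 0.218.

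Variable tiles lay on every autosome, from 0.619% of the tiles of chromosome 1 to 1.45% of those of chromosome 16. Of the 190, 101 (53.2%) lay within 1 kb of a gene end, 71 (37.4%) elsewhere in a gene and 18 (9.47%) between genes, against 51.9%, 34.7% and 13.4% of all tiles. The mean level was 25% to 75% in 77 variable tiles (40.5%), against 11.03% of all tiles, and 61 of these 77 belonged to the other variable tiles. The share was 46.4% in tiles past the limit in HFD alone and 36.9% in those past it in RD alone, and an SD limit in percentage points disfavours levels near 0% and 100% by construction. Genes named Zfp, most of them zinc-finger proteins, were at or nearest to 8 tiles (4.21%, against 1.71% of all tiles), which came from 5 genes, so that tiles of one gene were counted more than once. Of 12572 genes with any tile within 1 kb, 199 (1.58%) had a variable one.

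Of 20 imprinted genes listed, 16 had a tile within 1 kb and 3 of them, Zrsr1, Grb10 and Nap1l5, had a variable one (3 of 35 tiles). The tile at Zrsr1, a spliceosome gene inside Commd1 (chr11:22973118-22973169, 6 sites), had 75.7%, 62.8% and 45.5% in HFD females, 66.5%, 75% and 62.1% in HFD males, 50.1%, 68.9%, 70.1% and 69.5% in RD females and 65.1% and 83.3% in RD males. Grb10, an adaptor that dampens growth-factor signalling (chr11:12026120-12026186, 8 sites), ranged from 19.8% in HFD female 4 to 55.2% in HFD female 2 (median 35.0%), and from 20.1% to 39.0% in RD mice (median 35.5%). Nap1l5, a retrogene inside Herc3 (chr6:58906634-58906769, 8 sites), ranged from 35.7% to 61.3% in HFD mice and from 38.4% to 63.3% in RD mice. The shared-high pair was highest of its diet at none of these 3 tiles, and Grb10 and Nap1l5 kept lower SDs of 8.87 and 9.77 points without that pair, while Zrsr1 fell to 6.95.

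The 10 genes reported to lie beside variably methylated IAP elements gave 4 with a tile (9 tiles), none of it variable (0 of 9). Among markers of cell types the only gene with a variable tile was Spi1, the gene of the myeloid and B-cell transcription factor PU.1, 1 of 2 blood and immune markers with a tile. In that tile (chr2:91084591-91084639, 5 sites) RD female 1 had 56.2% and the other RD mice 81.0% to 89.8%, and the HFD mice ranged from 60.6% to 82.3%. RD female 1 was thus the lowest mouse here. The counts were 0 of 2 genes with a tile for cardiomyocytes, 0 of 4 for endothelial cells, 0 of 2 for fibroblasts, 0 of 2 for smooth muscle cells and pericytes, 0 of 1 for adipocytes, 0 of 2 for the epicardium, 0 of 2 for atrial myocytes and 0 of 1 for Schwann cells.

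The diet of the mother was compared over all tiles with a mean level of 5% to 95%. In this test, limma with diet and sex as terms and Benjamini-Hochberg adjustment, 16 of 9219 tiles (0.174%) passed an adjusted p of 0.05, and 0 of the 190 variable tiles did. With each mouse left out in turn, 5 to 11 of the 9219 tiles passed. At an unadjusted p of 0.05 limma picked 11 variable tiles (5.79%), against 701 of all tiles tested (7.6%). It picked 24 (12.6%, against 8.19%) without RD female 1, 17 (8.95%, against 6.84%) without RD male 2, and 9 to 13 without any other mouse. A large spread within each diet lowers the power of this test at the variable tiles by construction. In 0 of the 190 tiles did the HFD and RD mice fail to overlap, against 123 of all 20076 tiles (0.613%). The HFD mean was below the RD mean in 118 of 190 (62.1%), against 47.9% of all tiles, with a median difference of -1.13 points against 0.0498. The direction turned without RD female 1: the HFD mean was then lower in 56 of 190 (29.5%), with a median difference of 2.82 points, and without both raised libraries in 92 (48.4%), with a median of 0.0653 points. All tiles were lower in HFD in 43.6% and 44.5% of cases over the same mice. Leaving out any other mouse kept the direction in points but moved the size: the median difference was -3.65 points without HFD male 4, -0.245 without HFD female 4, -0.286 without HFD male 2, -0.471 without HFD female 3 and -2.53 without RD female 4. It was -2.02 points without RD male 1, -1.82 without RD female 3, -1.77 without HFD male 3, and between -1.58 and -0.779 without any of the others. On the log2 ratio scale of the test the median difference was -0.05 over 12 mice and turned positive without RD female 1 (0.16), without both raised libraries (0.07), without HFD female 4 (0.0018), without HFD male 2 (0.0003) and with a replicate block (0.13), so no direction is read from it. Over 12 mice, of the shared-high tiles 72 of 94 were lower in HFD, and of the other variable tiles 46 of 96. Without RD female 1 these counts were 18 and 38, and without both raised libraries 56 and 36. The higher of the raised libraries in 81 of those 94 tiles, RD female 1, is an RD mouse.

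No variable tile passed the test without HFD male 4 and RD female 1 either: limma called 0 of 190 (9 of 9219 tiles, 0.0976%), with 25 (13.2%) at an unadjusted p of 0.05 against 727 tiles (7.89%). With the variable tiles chosen again over those 10 mice, 0 of 93 tested were called by limma and 9 had an unadjusted p under 0.05. Over those 10 mice the diets did not overlap in 2 of the 190 tiles (1.05%), against 306 of all 20076 tiles (1.52%). The 2 tiles lay one in Dmrta2 and one just outside Gm7993 (chr5:95973949-95973999). In the latter the 5 HFD mice had 22.6% to 47.4% and the 5 RD mice 50% to 77.1%.

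The 3 variable tiles with the smallest p-values were all lower in HFD mice. Dlgap5, a mitotic spindle gene (chr14:47395905-47395960, 5 sites), had 53.5%, 29.1% and 30.7% in HFD females and 34.7%, 37.0% and 43.9% in HFD males. The RD females had 71.6%, 66.5%, 40.3% and 48.9% and the RD males 77.8% and 68.3%. The means were 38.1% ± 9.15 (SD, n = 6) and 62.2% ± 14.4 (SD, n = 6), and the mice overlapped through HFD female 2, HFD male 4 and RD females 3 and 4. The difference on the log2 ratio scale was -1.41 (SE 0.337), with a limma p of 0.00121 and an adjusted p of 0.215, and the adjusted p ran from 0.0763 to 0.600 over the alternatives (0.354 without the high pair, at a difference of -1.29).

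Basp1, which encodes a membrane-bound signalling protein of neurons (chr15:25364226-25364419, 22 sites), had 41.5% to 63.5% in HFD mice (57.1% ± 8.25, SD, n = 6) and 60.8% to 84.5% in RD mice (73.5% ± 8.93, SD, n = 6). Its limma difference was -0.93 (SE 0.268), with an adjusted p of 0.383 (0.363 without the high pair). Dmrta2, a transcription factor gene of the DMRT family (chr4:109982534-109982581, 10 sites), had 80.1% in HFD male 4 and 44.0% to 56.0% in the other HFD mice. The RD mice had 62.0% to 86.1%, with RD female 1 the highest. The limma difference there was -1.17 (SE 0.383), with an adjusted p of 0.475 (0.178 without the high pair, at a difference of -1.28).

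Females and males overlapped in every variable tile: 0 of 190 separated the 7 females from the 5 males, against 65 of all tiles (0.324%). The sexes lie within each diet, so a tile that separated them would also have raised the SD that chose it. With the mean of each sex within a diet subtracted, 180 tiles passed the limit.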

How the data were processed

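Reduced representation bisulfite sequencing was applied to left ventricle DNA: MspI cuts at CpG-containing sites, and bisulfite converts unmethylated cytosines. The authors deposited a table of percent methylation per site (421177 sites), with 1 column per sample per the file headers, and 0 columns were unmatched. The submitters' processing notes name Bismark 0.19, Trim Galore, FastQC, limma and mm10; their settings and any coverage minimum are not given in the sources used here. The table gives no coverage, the read depth is therefore unknown, and no counting interval can be given.

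Autosomal sites with values in all 12 samples were averaged in 500 bp tiles. Tiles with a mean of 5% to 95% were fitted with limma 3.58.1 (R 4.3.3) on log2((rate + 0.05)/(1 − rate + 0.05)) with diet and sex as terms, and p-values are two-sided and Benjamini-Hochberg adjusted over 9219 tiles. P-values measure the spread between these samples only. Library numbers of the HFD samples all precede those of the RD samples, so library order and diet cannot be told apart. The scripts were tested on simulated data. Gene names and promoter windows came from RefSeq tables of GRCm38.p6, the patch release of mm10: of 45522 sites in the windows, 99.98% lay on a CpG. Promoter windows of chromosome 18 were not used here, nor were exons, introns or repeats.

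The tiles, the gene lists and the tests were chosen with earlier results of these data known. Genes were named by rule: the 12 loci with the largest lower SD, the 8 loci with the most tiles, the 3 smallest diet p-values, tiles within 1 kb of a listed gene, and the tiles at the limit; others are said to be chosen after their values were seen. Alternatives were the SD limit, tile size and start, sites per tile, the median of sites, the offset, the scale, the limits on the mean, the sex term, a replicate block and each mouse left out in turn. Added after seeing the data were leaving out both raised libraries, choosing the tiles again without them, and leaving out HFD male 3 and RD male 2 as well.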

Additional observations from a re-analysis of the deposited data

Results flagged for a closer look

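Dixon's test at the 95% level was applied to the 6 mice of each diet at 46 tiles whose values are given, and to the number of sites with a value, the mean over all tiles and the mean over the variable tiles. It picked 26 of 98 groups. In groups not selected on their values about 5% are picked by chance, but these tiles were kept for their spread within each diet and some were chosen after their values were seen. That share does not apply to them, and the picks are listed as a description and support nothing.

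HFD male 4 lay apart in the Zeb1 tile at 54.7% (other HFD mice, 5.35% to 13.7%), in Epha10 at 44.4% (0.357% to 9.01%) and in Dmrta2 at 80.1% (44.0% to 56.0%). It did so too in the tiles just outside Gm35886 at 56.6% (15.1% to 25.4%) and Elovl2 at 27.2% (0.914% to 3.86%). In Zfp318 it had 40.1% (0.893% to 6.64%) in the tile of 12 sites and 25.4% (1.36% to 6.63%) in that of 16. It also lay apart in single tiles of Fkbp5 at 30.5% (4.03% to 12.2%), Cspg5 at 27.5% (2.36% to 10.3%), B830017H08Rik at 25.7% (1.48% to 9.91%) and Ube2j2 at 22.2% (0% to 5.28%). In the tile of Zfp800, just outside the SD limit, it had 31.3% (2.88% to 11.9%). Its number of sites with a value was 385299, against 406225 to 417081.

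RD female 1 lay apart in the Zeb1 tile at 73.7% (other RD mice, 4.12% to 27.5%), in Bfsp1 at 73.6% (22.9% to 37.3%) and at Gdf7 and Ldah at 52.1% (0.973% to 10.1%). It did so too in the tiles just outside Ugcg at 64.9% (0.385% to 12.5%) and Elovl2 at 26.5% (0.274% to 4.72%). In Cspg5 it had 47.5% (4.01% to 12.2%) in one tile and 33.5% (2.21% to 13.9%) in the other, in Ube2j2 27.1% (0% to 3.11%) and in Nova2 60.8% (19.7% to 35.1%). In Spi1 it lay below the rest, at 56.2% (81.0% to 89.8%).

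HFD male 3 lay apart in Atf3 at 49.0% (other HFD mice, 0% to 14.6%). RD male 2 lay apart in Ntsr1 at 29.1% (other RD mice, 0.877% to 7.62%) and in Arc at 22.5% (0% to 4.88%).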

How the results depend on the processing

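The number of variable tiles, 190, was 539 at an SD limit of 6 points and 72 at 10 points, 555 with 3 or more sites per tile and 93 with 10 or more, and 362 with the median of the sites. It was 115 to 200 with each mouse left out in turn, 94 without HFD male 4 and RD female 1, and 71 without HFD male 3 and RD male 2 as well. Tiles of 250 bp gave 247, tiles of 1000 bp 144, shifted starts 186 and subtracted sex means 180. Which tiles passed under these settings was counted only for mice left out.

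Limma called 0 variable tiles between the diets in each of the 23 alternatives. Tiles without overlap between the diets numbered 0 to 2 with each mouse left out, and 2 without both raised libraries. These were 2 without HFD male 4 (1.05%, against 0.872% of all tiles over the same mice), 1 without RD female 4 (0.526%, against 0.996%) and 1 without RD male 2 (0.526%, against 1.001%). Without both, 1.05% of the variable tiles and 1.52% of all tiles were without overlap. The median difference at the variable tiles, -1.13 points, turned to 2.82 without RD female 1 and to 0.0653 without both raised libraries, and on the log2 ratio scale its sign also turned without HFD female 4, without HFD male 2 and with the replicate block. The agreement between sites, 0.806, was 0.782 to 0.824 with each mouse left out. The difference at Dlgap5, Basp1 and Dmrta2 kept its direction and stayed uncalled in 20 alternatives each.

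Replicate numbers were not used to pair the mice in the main test, since the labels tie them to no litter or batch. After each diet and sex mean was subtracted, same-numbered females of the diets correlated at 0.013, 0.030 and 0.012 over all tiles tested. The same-numbered males correlated at -0.103. The RD males are only 2, so their deviations mirror each other, and HFD male 2 correlated at 0.103 with RD male 1. These values cannot show whether the numbers pair mice. With the replicate block limma called 0 variable tiles and 3 of 9219 tiles in all. At an unadjusted p of 0.05 it picked 13 variable tiles (6.84%), against 617 of all tiles tested (6.69%).

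The unknown coverage limits all values: at few reads a level moves in large steps, which enters the spread between mice.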
